A study of Saccharomyces cerevisiae with 74 samples.

Results

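The genes described here encode budding yeast Hsp90, the disaggregase Hsp104 and the Hsp90 cochaperones, 10 protein-coding genes chosen by name: HSP82 (YPL240C), HSC82 (YMR186W), HSP104 (YLL026W), STI1 (YOR027W), AHA1 (YDR214W), CPR6 (YLR216C), CDC37 (YDR168W), SBA1 (YKL117W), HCH1 (YNL281W) and CNS1 (YBR155W). All 10 were measured, among 6545 protein-coding features in the RNA-seq tables and 6473 in the protein crosslinking tables. All 10 also passed the filter on low counts in each of the 4 fits, which tested 6298 mRNAs in RNA-seq, 4853 bound to eIF4A, 5555 bound to eIF4B and 5800 bound to Ded1.

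Hsp90 is an abundant ATP-dependent chaperone that brings kinases, transcription factors and other client proteins into their active state, and cochaperones bind it in turn to deliver clients, to speed or slow its ATPase and to release the finished client. Yeast makes Hsp90 from a pair of nearly identical genes, HSC82, which is expressed at a high level in unstressed cells, and HSP82, which is strongly heat-inducible. Hsp104 is a ring-shaped ATPase that pulls proteins out of heat-induced aggregates together with Hsp70 and its J-domain partners, and yeast cells need it to survive severe heat. Most of these genes are known targets of the heat shock factor Hsf1 or of the general stress factors Msn2 and Msn4.

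The study asked what happens to translation initiation in budding yeast when cells are heated or lose glucose. In CRAC, a tagged protein is crosslinked to RNA in living cells and purified, and the RNA fragments bound to it are sequenced, so the counts show which mRNAs the protein touched. The proteins were eIF4A, the helicase that works at the mRNA cap, eIF4B, its RNA-binding partner, and Ded1, a second helicase of the scanning ribosome. Poly(A)-selected RNA-seq measured the mRNAs themselves, with RNA of the fission yeast Schizosaccharomyces pombe added as a spike-in.

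All strains were haploid and derived from BY4741, and each tagged line carried its tag on the gene at its own locus under its own promoter: an amino-terminal FLAG-His tag on TIF1, a gene that encodes eIF4A, a carboxy-terminal His-FLAG tag on TIF3, which encodes eIF4B, or an amino-terminal FLAG-His tag on DED1. Cells grew at 30°C in synthetic medium with glucose and without tryptophan. The groups were heat shock (42C, pre-warmed medium for 16 min), glucose withdrawal (GE, medium with glycerol and ethanol in place of glucose, for 30 s or 16 min), a mock shift of 16 min into the same glucose medium, and a control harvested directly. Heat shock together with CHX (cycloheximide, which blocks translating ribosomes) was measured for eIF4B and in RNA-seq. CRAC libraries numbered 4 at 42C, 4 at GE 16 min, 3 at GE 30 s, 4 mock and 6 control for eIF4A. For eIF4B they numbered 4 at 42C, 2 at 42C with CHX, 3 at GE 16 min, 2 at GE 30 s, 3 mock and 4 control, and for Ded1 3 at 42C, 3 at GE 16 min, 2 at GE 30 s, 2 mock and 3 control. RNA-seq had 3 wild-type libraries at 42C, 2 at 42C with CHX, 2 at GE 16 min and 3 control, with no mock shift. It also had 2 libraries at 42C and 2 control libraries each for deltaXrn1, which lacks the main 5′ to 3′ exonuclease of mRNA decay, and deltaSki2, which lacks the helicase of the cytoplasmic exosome. The deltaXrn1 strain came from the deletion collection and the deltaSki2 strain was made by CRISPR, so each deletion was 1 clone.

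Tagged CRAC libraries held 183689 to 4385132 counted reads, and RNA-seq libraries held 26398967 to 46538567 reads of S. cerevisiae and 531145 to 990246 of S. pombe. The SKI2 level was 0.00614 to 0.0204 reads per 1000 S. pombe reads in the 4 deltaSki2 libraries and 2.29 to 7.59 in the other 14, and the XRN1 level was 0.0775 to 0.38 in the 4 deltaXrn1 libraries and 7.73 to 23.3 in the other 14. The 4 untagged CRAC libraries held 347 to 46692 reads, of which 1 to 109 fell on the 10 genes. These few reads were 0.775 to 4.02% of their mRNA reads, a larger share than in any tagged control library. The share of CRAC reads on mRNA was 13.7 to 23.5% at 42C and 29.1 to 47.2% in controls for eIF4A, 25.2 to 33.1% and 62.5 to 70.6% for eIF4B, and 34.3 to 47.4% and 47.4 to 67.9% for Ded1. CRAC values per 1000000 counted reads (RPM) fell for most mRNAs at 42C. The median log2 changes were -2.15 for eIF4A, -1.45 for eIF4B and -0.82 for Ded1. Scaled to mRNA reads, the same medians were -1.24, -0.35 and -0.44. The part of the mRNA share in the results was not tested. CRAC changes are therefore read against the median of all mRNAs tested. Of 520 CRAC values of the 10 genes in tagged libraries, 36 over 8 genes were 0 reads, which at 3 reads allows 2.06 to 16.3 RPM. These limits cover counting error only.

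Heat shock split the set into 3 kinds of response at the mRNA level. HSP104 rose 37.2-fold, HSP82 25.0-fold, CPR6 12.3-fold and STI1 11.7-fold at 42C over control, AHA1, HCH1 and HSC82 rose 3.7- to 7.01-fold, CDC37 and SBA1 did not pass the test, and CNS1 fell 5.61-fold. Of the 10, 7 rose and 1 fell at an adjusted p below 0.05 (edgeR quasi-likelihood test with Benjamini-Hochberg adjustment over all mRNAs tested, used for every adjusted p below), while 17.4% of all 6298 mRNAs rose and 63.4% fell. The median log2 change was 2.43 over the 10 and -0.77 over all mRNAs. RNA-seq levels are in reads per 1000 S. pombe reads. Since the spike-in was added to purified RNA, they are levels relative to total RNA. A change in an mRNA and an opposite change in the rest of the RNA cannot be told apart on this scale.

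**Figure D1:**
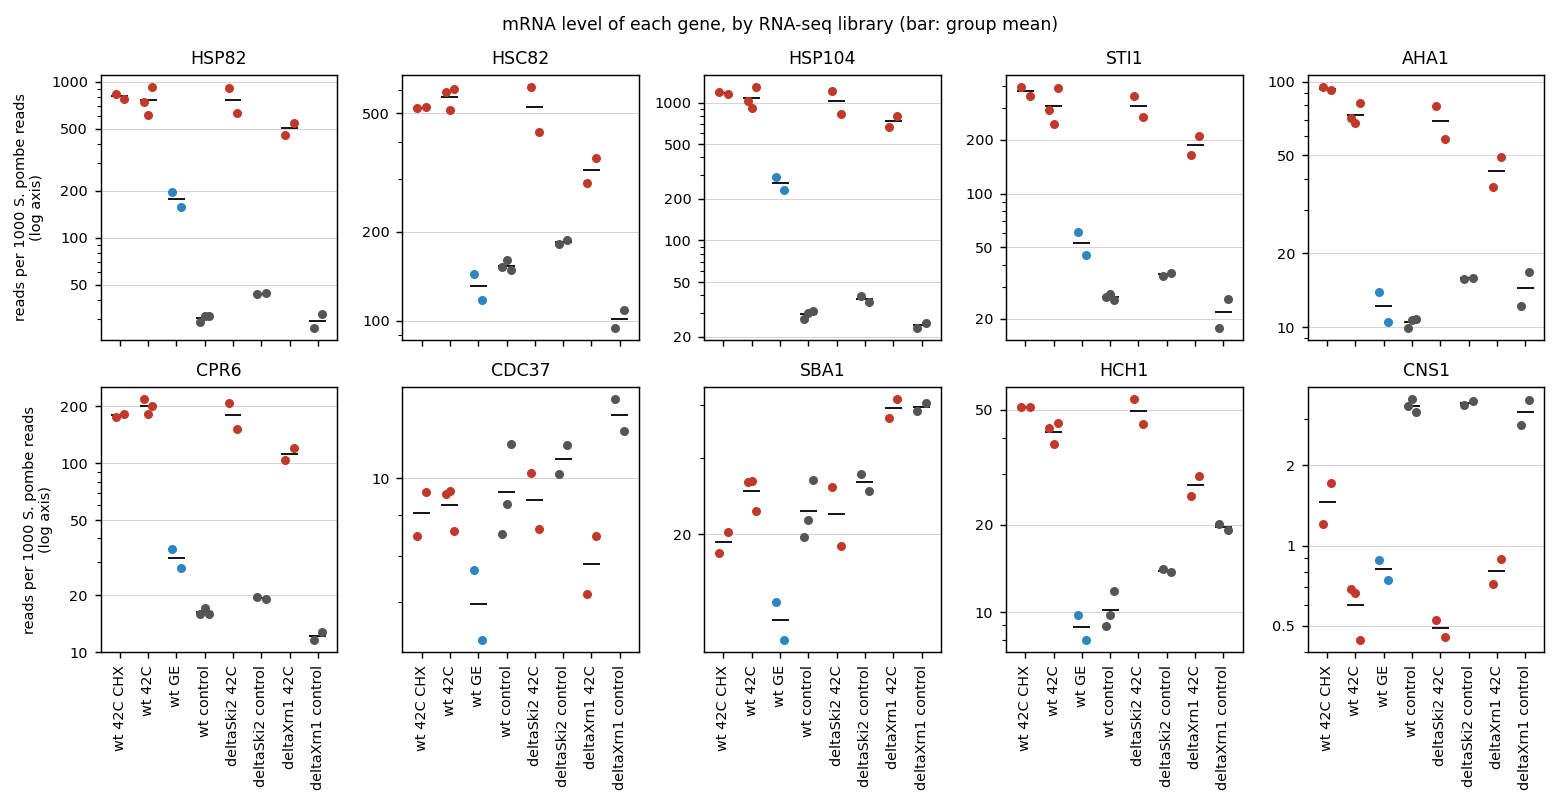
Level of each of the 10 mRNAs in each of the 18 RNA-seq libraries, in reads per 1000 S. pombe reads on a log axis, by strain and condition (points are libraries, bars are group means, red is 42C, blue is GE and grey is control). HSP104 and HSP82 stood at 914.2 to 1306 and 614 to 929.7 in wild-type cells at 42C and near 30 in control cells, CDC37 overlapped between 42C and control, and CNS1 was the lowest mRNA in every library and lower still in both stresses.

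The Hsp90 pair responded unequally. HSP82 had 745.2, 614 and 929.7 reads per 1000 S. pombe reads in the 3 wild-type libraries at 42C, against 28.93, 31.36 and 31.44 in the 3 controls. The groups were far apart, and the log2 change was 4.64 (SE 0.22, adjusted p = 6.58e-81), the 51st highest of 6298. HSC82 had 588.1, 512.6 and 602 at 42C, against 151.9, 160.6 and 148.3 in controls, again with no overlap, for a log2 change of 1.89 (SE 0.20, adjusted p = 2.73e-20). The 2 genes share most of their coding sequence, and reads that fitted both were placed at random, so each value may hold reads of the other and the induction of HSP82 may be understated and that of HSC82 overstated. Summed over both genes, which random placement does not affect, Hsp90 mRNA rose by 2.85 on the log2 scale.

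The ratio of the 2 Hsp90 mRNAs turned over with stress. Reads on HSP82 were 1.2 to 1.54 times those on HSC82 in wild-type cells at 42C and 0.19 to 0.212 times in controls, so the heat-inducible gene passed the constitutive one in all 3 heat-shocked libraries. The ratio was 1.34 to 1.37 at GE 16 min, although HSC82 itself did not pass the test there. It was also above 1 in both 42C libraries of each deletion strain, at 1.54 to 1.57 in deltaXrn1 and 1.44 to 1.47 in deltaSki2, and below 0.3 in their controls.

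**Figure D2:**
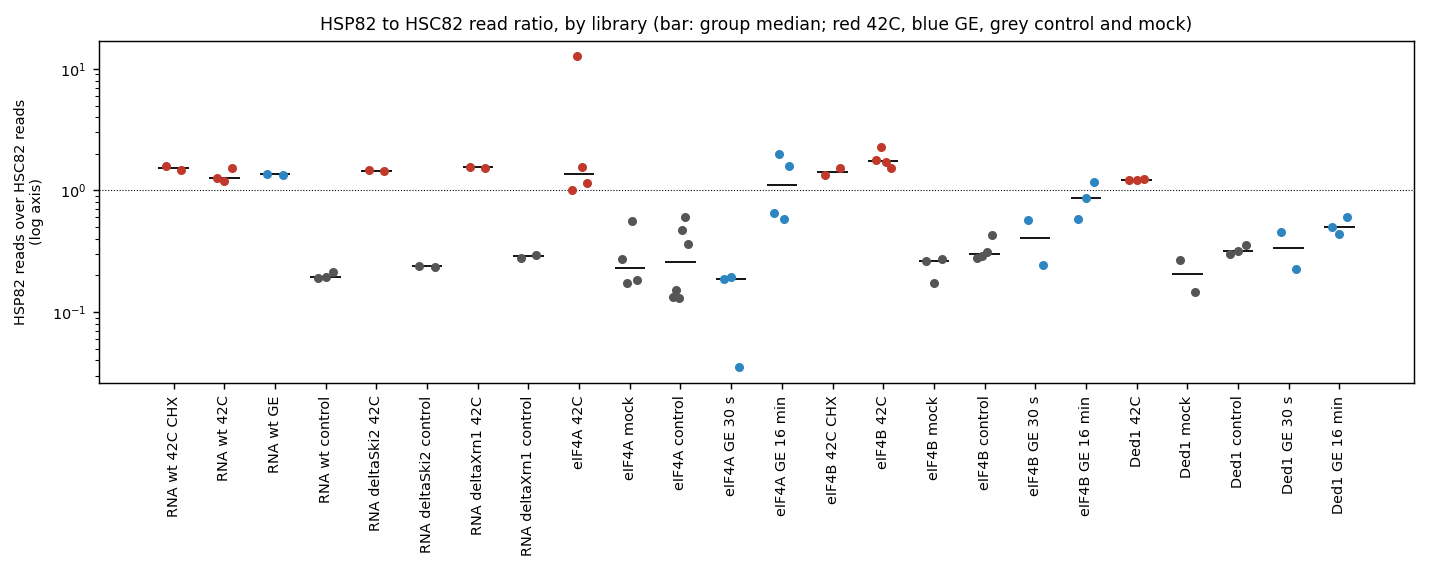
Reads on HSP82 divided by reads on HSC82 in each library, on a log axis, for RNA-seq and for the 3 proteins by CRAC (points are libraries, bars are group medians, red is 42C, blue is GE, grey is control or mock, and the dotted line marks a ratio of 1). All RNA-seq and CRAC libraries at 42C lay above 1 and all control and mock libraries below it.

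HSP104, the disaggregase, had the largest change of the set. Its level was 1032, 914.2 and 1306 reads per 1000 S. pombe reads at 42C and 27.15, 29.58 and 30.71 in controls. The lowest heat-shocked library was thus far above the highest control, and the log2 change was 5.22 (SE 0.23, adjusted p = 4.43e-93), the 31st highest of 6298.

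STI1, which bridges Hsp70 and Hsp90 and passes clients between them, had 295.1, 244.4 and 389.7 reads per 1000 S. pombe reads at 42C, against 26.31, 27.34 and 25.44 in controls (log2 3.55, SE 0.21, adjusted p = 4.46e-57). CPR6, a proline isomerase that binds the Hsp90 tail, had 219, 182.7 and 200.9 at 42C and 15.94, 17.09 and 16.02 in controls (log2 3.62, SE 0.21, adjusted p = 3.91e-60). Both cochaperone mRNAs thus rose less than HSP82 and more than HSC82, and neither gene's groups overlapped. AHA1, which activates the Hsp90 ATPase, had 70.85, 67.78 and 81.5 at 42C, against 9.924, 10.67 and 10.82 in controls (log2 2.81, SE 0.20, adjusted p = 3.13e-42). HCH1, a smaller relative of Aha1, had 43.05, 37.95 and 44.8 at 42C and 8.935, 9.79 and 11.79 in controls (log2 2.04, SE 0.19, adjusted p = 9.11e-26). Aha1 and its relative thus rose in all 3 libraries, HCH1 by less.

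CDC37, which loads kinases onto Hsp90, had 9.55, 9.634 and 8.594 reads per 1000 S. pombe reads at 42C and 8.52, 9.293 and 11.05 in controls (log2 -0.06, SE 0.17, adjusted p = 0.77). SBA1, the yeast p23 that holds the closed, ATP-bound form of Hsp90, had 26.42, 26.63 and 22.64 at 42C and 19.75, 21.57 and 26.71 in controls (log2 0.15, SE 0.18, adjusted p = 0.431). The 2 groups overlapped for both genes. Their standing depended on the scale: relative to total S. cerevisiae reads, in place of the spike-in, CDC37 was called higher at 0.34 and SBA1 at 0.55, and with TMM scaling, which brings the median of all mRNAs to 0.10, at 0.82 and 1.03. TMM scaling also raised the other values, HSP104 to 6.09, HSP82 to 5.52 and HSC82 to 2.76, and brought CNS1 to -1.62.

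CNS1, an essential cochaperone that binds both Hsp90 and Hsp70, moved the other way. It had 0.6887, 0.6624 and 0.4419 reads per 1000 S. pombe reads at 42C, against 3.333, 3.55 and 3.186 in controls. Every heat-shocked library was well below every control, and the log2 change was -2.49 (SE 0.17, adjusted p = 1.2e-43), which was 1.72 below the median of all mRNAs. It was the 757th lowest of 6298.

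The RNA-seq libraries were divided by their letters into 2 sets, A to F and H to S, which are not stated to be batches. Both GE libraries were in the first set, and all CHX, deltaXrn1 and deltaSki2 libraries were in the second. Wild-type 42C and control libraries were in both, so comparisons of the other groups with them cross the sets in part. The wild-type change at 42C was computed within each set, with 2 libraries against 2 in the first and 1 against 1 in the second. HSP104 was 34.3-fold higher at 42C in the first set and 42.5-fold in the second, HSP82 22.5-fold and 29.6-fold, and HSC82 3.52-fold and 4.06-fold. Among cochaperones the same pairs of values were 10.1 and 15.3 for STI1, 12.2 and 12.5 for CPR6, 6.73 and 7.53 for AHA1, and 4.33 and 3.8 for HCH1. CNS1 was lower in both sets, by log2 changes of -2.35 and -2.85, while CDC37 (1.08 and 0.778) and SBA1 (1.28 and 0.848) took opposite directions in the 2 sets.

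Read counts were divided by gene length to compare the 10 genes with each other. In wild-type controls HSC82 led with a mean of 66.98 reads per kb per 1000 S. pombe reads, followed by SBA1 at 20.88, HCH1 at 14.65, STI1 at 13.63, HSP82 at 13.15 and CPR6 at 12.84, HSP104 at 9.576, AHA1 at 8.279, CDC37 at 5.924 and CNS1 at 2.463. The ranges of neighbours overlapped from HCH1 through STI1 and HSP82 to CPR6 and nowhere else in this order. At 42C the order was HSP104 at 356.1, HSP82 at 328, HSC82 at 247.5, STI1 at 160.2, CPR6 at 157.8, HCH1 at 60.42, AHA1 at 58.01, SBA1 at 23.23, CDC37 at 5.702 and CNS1 at 0.4385. Here HSP104 overlapped with HSP82, STI1 with CPR6 and HCH1 with AHA1. SBA1, second in control cells, was thus eighth at 42C with nearly the same level. Together the 10 mRNAs held 7.5 to 8.79% of all mRNA reads in wild-type cells at 42C and 0.601 to 0.652% in controls.

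Glucose withdrawal raised a smaller group of these mRNAs, and by less. After 16 min in GE, HSP104 rose 8.92-fold, HSP82 5.8-fold, STI1 2.01-fold and CPR6 1.93-fold, and CNS1, SBA1 and CDC37 fell. That is 4 of 10 higher and 3 lower, against 18.5% higher and 40.6% lower among all mRNAs, with a median log2 change of 0.01 over the 10 and -0.26 over all. The GE libraries share their controls with the 42C libraries.

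HSP104 had 287.5 and 232.5 reads per 1000 S. pombe reads in the 2 GE libraries, above all 3 controls (log2 3.16, SE 0.22, adjusted p = 1.81e-41). HSP82 had 197.4 and 157.5, likewise above all controls (log2 2.54, SE 0.22, adjusted p = 9.44e-29). HSC82 had 144.4 and 117.3, both below its controls, but the change did not pass (log2 -0.23, adjusted p = 0.363). Summed, the Hsp90 pair was 0.74 higher on the log2 scale (adjusted p = 0.00131). STI1 had 60.69 and 45.4 (log2 1.01, SE 0.21, adjusted p = 6.02e-06) and CPR6 had 35.39 and 27.79 (log2 0.95, SE 0.21, adjusted p = 1.59e-05), both clear of their controls. AHA1, at 13.83 and 10.46, and HCH1 did not pass the test (log2 0.21 and -0.20, adjusted p = 0.377 and 0.416).

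CNS1 had 0.8865 and 0.7428 reads per 1000 S. pombe reads in GE, far below every control, and its log2 change of -2.04 (SE 0.20, adjusted p = 3.66e-23) was the 64th lowest of 6298, so the fall stood further out among all mRNAs than at 42C. SBA1 had 13.95 and 11.36 in GE, also below every control (log2 -0.84, SE 0.21, adjusted p = 0.000148). The smaller fall of CDC37 (log2 -0.46, adjusted p = 0.0278) was lost without GE library D (-0.33, adjusted p = 0.256) or control H (-0.35, adjusted p = 0.135) and on either scaling within S. cerevisiae. AHA1 was called higher on those scalings, at 0.52 relative to S. cerevisiae reads. GE library D was also the RNA-seq library with the smallest share of reads on protein-coding genes, 83.6%.

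The 2 stresses were also compared directly at 16 min. At 42C, 9 of the 10 mRNAs were higher than in GE and CNS1 was lower, where 11.5% of all mRNAs were higher and 58.5% lower. The log2 differences lay between 2.06 and 2.67 for HSP104, HSP82, HSC82, HCH1, STI1, AHA1 and CPR6, a band narrower than that of their changes over control. SBA1 differed by 1.00 (adjusted p = 5.15e-06). The differences of CDC37 (0.41, adjusted p = 0.0464) and CNS1 (-0.45, adjusted p = 0.0234) did not hold. That of CDC37 was lost without D (0.27), E (0.39) or F (0.38), and that of CNS1 without GE library C (-0.31, adjusted p = 0.244) or 42C library I (-0.27, adjusted p = 0.212). CNS1 took the opposite sign with TMM scaling (0.14).

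CRAC showed which of these mRNAs the initiation factors touched. Reads anywhere on the annotated gene were counted, so binding at the 5′ end, which the paper found reduced in both stresses, was not measured apart. RPM values are shares of each library, so higher or lower binding here and below is relative, a limit the paper also gives. It is not corrected for mRNA level. Heat shock raised Ded1 binding in RPM to 7 of the 10 and lowered it to CNS1, raised eIF4B binding to the same 7 and lowered it to CNS1, and raised eIF4A binding to HSP104, CPR6 and HSP82 only. All mRNAs tested gave 3.76% higher and 23% lower for Ded1, 2.39% higher and 23.5% lower for eIF4B, and 0.659% higher for eIF4A. The median log2 change over the 10 was 2.86 for Ded1, 1.86 for eIF4B and 1.61 for eIF4A, and over all mRNAs -0.82, -1.45 and -2.15.

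**Figure D3:**
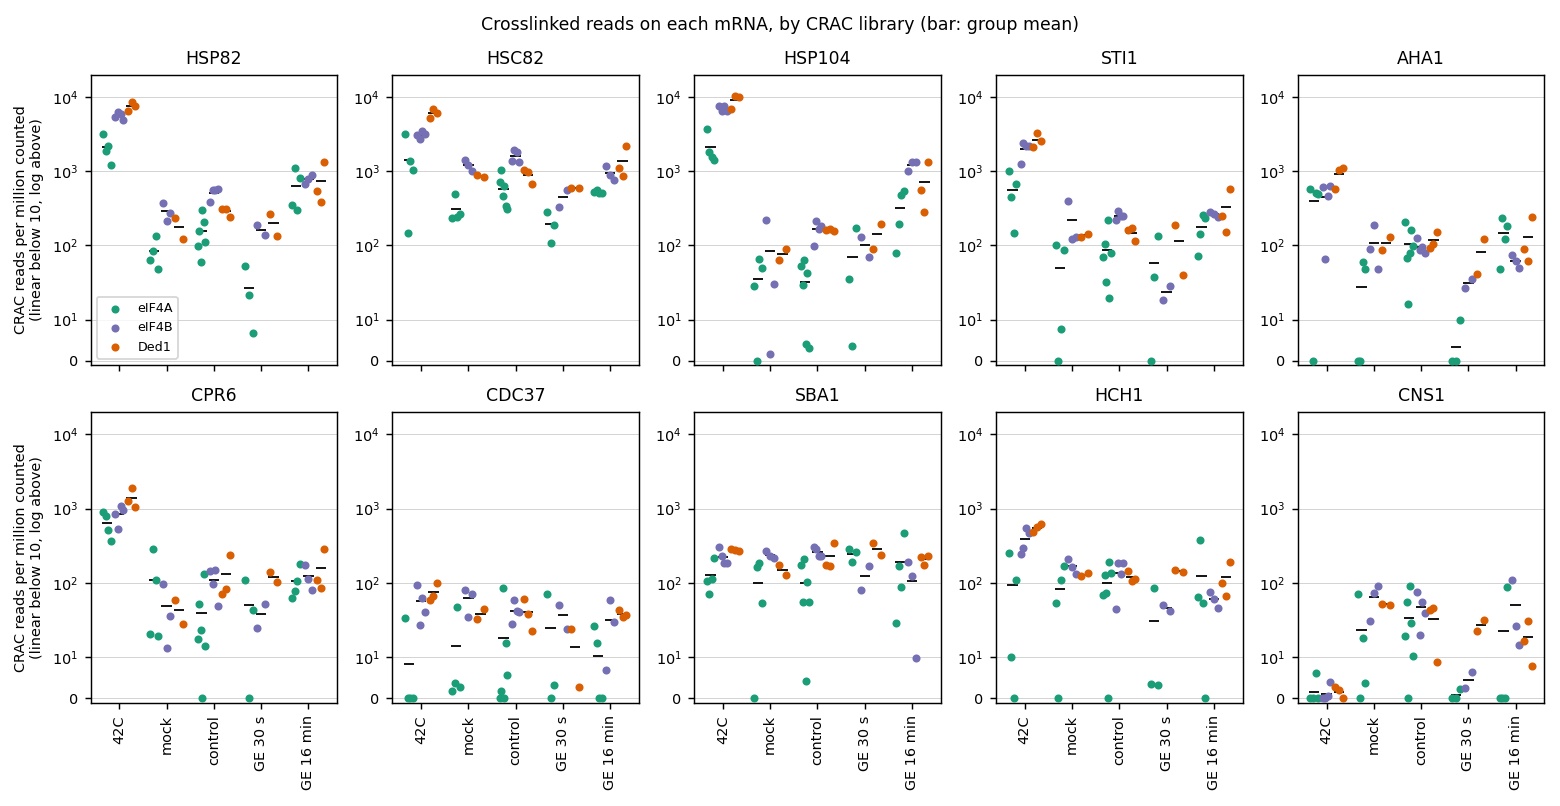
CRAC reads per 1000000 counted reads on each of the 10 mRNAs in each tagged library, on an axis that is linear below 10 and logarithmic above, for 42C, mock, control, GE 30 s and GE 16 min (points are libraries, bars are group means, eIF4A in green, eIF4B in purple, Ded1 in orange). HSP82, HSP104 and CPR6 stood higher in every 42C library than in any control for all 3 proteins, and CNS1 was at 0 to 6.228 RPM at 42C.

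For HSP104, Ded1 crosslinked 6773, 10170 and 9996 RPM at 42C, against 160.2, 166.8 and 156.4 in controls (log2 5.80, SE 0.47, adjusted p = 1.55e-09). On eIF4B it had 7476, 6402, 7494 and 6383 RPM at 42C and 97.34, 210.4, 163.7 and 183.3 in controls (log2 5.4, SE 0.55, adjusted p = 2.19e-11). Both sets of libraries were tightly grouped and far apart. With eIF4A it had 3749, 1797, 1545 and 1431 RPM at 42C and 52.39, 29.14, 64.16, 4.121, 42.69 and 3.13 in controls (log2 6.01, SE 0.96, adjusted p = 2.18e-06, the 17th highest of 4853). The controls of eIF4A were few reads each and scattered over more than 10-fold, but none came near the 42C libraries.

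HSP82 gave 6428, 8500 and 7540 RPM with Ded1 at 42C, against 312.5, 310.8 and 239.8 in controls (log2 4.70, SE 0.42, adjusted p = 7.62e-09). For eIF4B the values were 5415, 6179, 5970 and 4867 RPM at 42C and 378.3, 555.5, 558.7 and 567.8 in controls (log2 3.44, SE 0.34, adjusted p = 1.14e-11). For eIF4A they were 3165, 1868, 2161 and 1202 RPM at 42C and 60.46 to 296.7 in the 6 controls (log2 3.77, SE 0.75, adjusted p = 0.000175). No library at 42C overlapped a control for any of the 3 proteins.

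HSC82, the constitutive Hsp90 gene, rose with Ded1 to 5210, 6925 and 6086 RPM at 42C, against 1042, 978.8 and 667.2 in controls (log2 2.76, SE 0.32, adjusted p = 2.66e-07). On eIF4B it rose less, to 3028, 2733, 3465 and 3186 RPM against 1355, 1918, 1794 and 1330 (log2 0.96, SE 0.32, adjusted p = 0.0237). The groups were separate, but that call was lost without control 08 (0.89, adjusted p = 0.0706), control 71 (0.88, adjusted p = 0.0754), 42C library 75 (0.90, adjusted p = 0.054) or libraries 97, 98 and 99 (0.94, adjusted p = 0.0564), which were counted on a later annotation. With eIF4A it had 3129, 146.8, 1373 and 1049 RPM at 42C and 305.7 to 1028 in controls, so the groups overlapped (log2 1.30, adjusted p = 0.188). The low value was library 16, where HSP82 was not low and the ratio of the pair was 12.7. Scaled to mRNA reads, the eIF4A change of HSC82 was called at 2.24. In CRAC too, reads that fitted both Hsp90 genes were placed at random, so each value may hold reads of the other. Summed over the pair, binding rose by 3.52 with Ded1, 2.04 with eIF4B and 2.26 with eIF4A (adjusted p = 0.00448).

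STI1 had 2113, 3236 and 2521 RPM on Ded1 at 42C and 158.8, 170.5 and 113.2 in controls (log2 4.15, SE 0.50, adjusted p = 4.4e-07). On eIF4B it had 1256, 2379, 2171 and 2203 RPM at 42C and 218.5, 292.1, 247.3 and 246.4 in controls (log2 2.99, SE 0.43, adjusted p = 1.43e-07). With eIF4A its values of 989.1, 445.4, 146.4 and 667.4 at 42C reached down into the controls, at 19.71 to 218.4 (log2 2.69, adjusted p = 0.0908). This eIF4A change did pass with TMM scaling (3.53, adjusted p = 0.0431) and scaled to mRNA reads (3.63, adjusted p = 0.0353).

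CPR6 had 1250, 1871 and 1037 RPM on Ded1 at 42C and 71.65, 83.8 and 236.8 in controls (log2 3.43, SE 0.51, adjusted p = 8.82e-06, and 4.16 without control 65). On eIF4B it had 843.1, 533.5, 1086 and 952.1 at 42C and 145.1, 96.72, 147.7 and 48.57 in controls (log2 2.97, SE 0.54, adjusted p = 1.78e-05). On eIF4A it had 888, 804.8, 523.1 and 369.4 at 42C and 17.73, 51.7, 23.44, 0, 132.2 and 14.09 in controls, the 0 allowing 12.4 RPM (log2 4.00, SE 1.17, adjusted p = 0.0209). CPR6 was thus separate between groups on all 3 proteins. Its eIF4A call was lost without 42C library 15 (3.81, adjusted p = 0.051) and against mock-shifted cells (2.57, adjusted p = 0.16), and the value was 4.88 without control 76.

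AHA1 had 580.8, 1030 and 1101 RPM on Ded1 at 42C, against 93.26, 103.6 and 153.4 in controls (log2 2.96, SE 0.50, adjusted p = 4.37e-05). On eIF4B it had 610.8, 65.33, 463.7 and 639.7 at 42C and 126.7, 85.61, 93.88 and 78.62 in controls, where library 56 fell below every control although the change passed (log2 2.22, SE 0.60, adjusted p = 0.00366). On eIF4A it had 580.9, 0, 510.7 and 493.9 at 42C, the 0 in library 16 allowing 15.2 RPM, and 16.04 to 204.7 in controls (log2 1.93, adjusted p = 0.274). One library each thus stood apart on eIF4B and eIF4A. HCH1 had 480.1, 558 and 622.2 on Ded1 at 42C, against 142.6, 107.7 and 111.7 (log2 2.19, SE 0.41, adjusted p = 0.000173). On eIF4B it had 245.2, 294, 549.6 and 464.6, against 44.08, 185, 132.8 and 184.8, with no overlap (log2 1.51, SE 0.56, adjusted p = 0.0394), but that call was lost without any of the 4 controls (1.22 to 1.69 by control), without 42C library 75 (1.29, adjusted p = 0.112) or 98 (1.41, adjusted p = 0.0787), without libraries 97, 98 and 99 (1.41, adjusted p = 0.105) and against mock-shifted cells (1.20, adjusted p = 0.144).

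CDC37 and SBA1 did not pass the test on any of the 3 proteins. CDC37 had 58.53, 67.49 and 101.2 RPM on Ded1 at 42C and 59.77, 37.98 and 22.34 in controls (log2 0.90, adjusted p = 0.362). SBA1 had 283.5, 279.6 and 270.5 on Ded1 at 42C and 176.4, 166.8 and 342.5 in controls (log2 0.29, adjusted p = 0.624), and both overlapped between groups. Scaled by TMM, the Ded1 change of SBA1 was called at 1.12.

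CNS1 had few or no reads on the 3 proteins at 42C, and its change was called for Ded1 and eIF4B. Ded1 had 7, 5 and 0 reads of it at 42C, or 2.678, 2.109 and 0 RPM, against 42.85, 45.82 and 8.936 RPM in controls (log2 -4.23, SE 1.02, adjusted p = 0.00252). For eIF4B there were 0, 0, 1 and 8 reads at 42C, or 0, 0, 0.6182 and 3.967 RPM, against 75.3, 19.61, 56.1 and 39.56 RPM in controls (log2 -4.68, SE 1.26, adjusted p = 0.0037). The groups did not overlap on either protein, and the zeros allow 2.06 RPM for Ded1 and 12.9 and 16.3 RPM for eIF4B. Without library 98, which held 8 of the 9 eIF4B reads, the fitted value was -6.43, which with so few reads rests on the fit and is no bound. On eIF4A only 2 reads were seen at 42C, in 1 of 4 libraries, and the controls ran from 0 to 90.67 RPM, so no fold is given (adjusted p = 0.197). Apart from HSC82 and HCH1, no member's eIF4B call at 42C was lost without libraries 97, 98 and 99.

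Set beside the mock shift in place of the direct harvest, the 42C binding changes that were called kept their sign, and HSP82 and HSP104 gave larger values, 4.28 and 6.36 on eIF4B, 5.39 and 6.87 on Ded1, and for HSP82 4.66 on eIF4A. CPR6 on eIF4A and HCH1 on eIF4B lost their calls there. For the mock shift itself, no member was called against control on any of the 3 proteins by edgeR or by DESeq2, where 0% of mRNAs were called for eIF4A, 0.036% for eIF4B and 0% for Ded1. At an unadjusted p below 0.05 there were 0, 2 and 2 members. Without mock library 25, HSP104 on eIF4B was called lower (log2 -3.26, adjusted p = 0.000309), since the other mock libraries had 1.646 and 30.01 RPM and library 25 had 221.

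**Figure D4:**
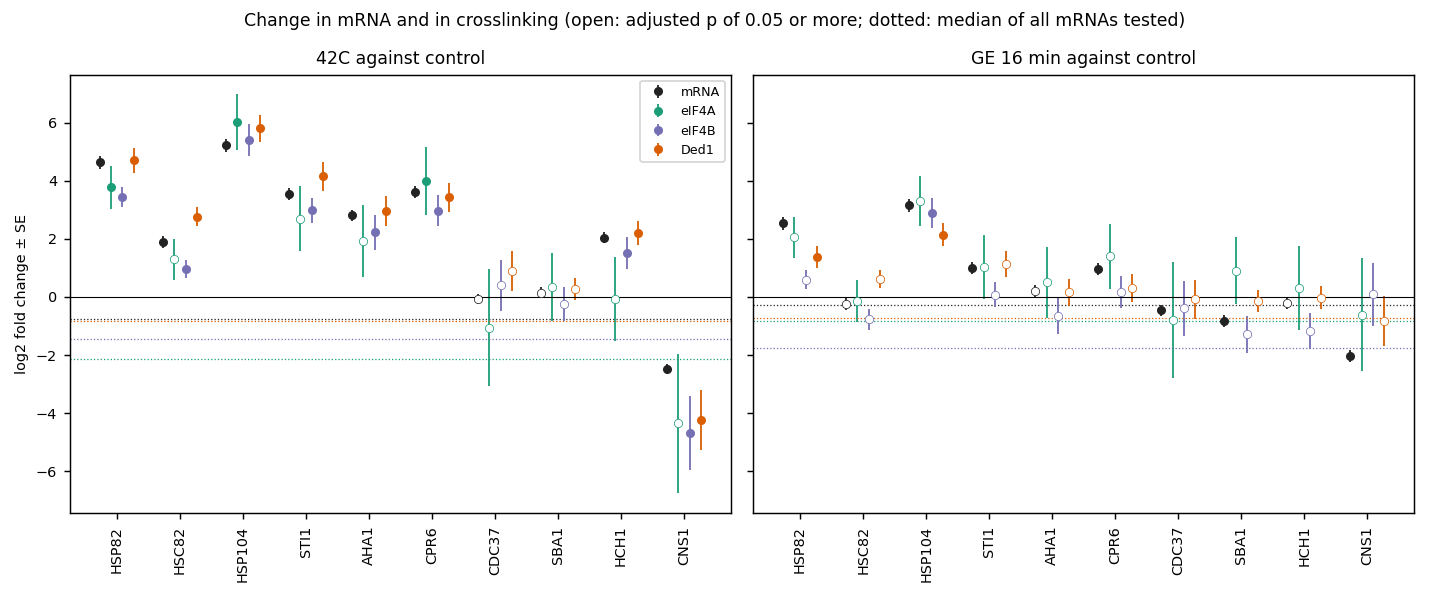
Log2 change of each of the 10 genes in RNA-seq and in CRAC for the 3 proteins, with heat shock and with GE 16 min over control (points are fitted changes, bars are their SE, open points have an adjusted p of 0.05 or more, and the dotted line is the median of all mRNAs tested). HSP82 and HSP104 lay far above the median in all 4 measures at 42C. CNS1 lay below it in mRNA, eIF4B and Ded1. Its eIF4A point at 42C was not called and rests on 2 reads, so its place is not interpreted.

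Changes in binding were then set against changes in mRNA, as the log2 CRAC change minus the log2 RNA-seq change for the same gene, which was described and not tested. At 42C, 8 of 10 genes lay above the median of all mRNAs for Ded1, 7 for eIF4B and 8 for eIF4A. The median of this difference was 0.15 over the 10 and -0.04 over 5786 mRNAs for Ded1. For eIF4B it was -0.57 and -0.68 over 5544 mRNAs, and for eIF4A -0.86 and -1.26 over 4850. CRAC values are per counted read and RNA-seq values per S. pombe read, so a difference of 0 has no absolute meaning. Against all mRNAs, the median of the 10 was somewhat higher for each protein but within the quartiles. These were -0.65 to 0.52 for Ded1, -1.5 to 0.17 for eIF4B and -3.23 to 0.28 for eIF4A. HSP104 lay at percentile 77.3 for Ded1, 75.4 for eIF4B and 81.7 for eIF4A, and HSP82 at 54.4, 32.9 and 55.5. CNS1 stood low at 42C, at -1.74 for Ded1 (percentile 6.5) and -2.19 for eIF4B (percentile 12.7). For eIF4A the fitted value of -1.86 (percentile 40.7) rests on 2 reads at 42C. After GE 16 min the CNS1 difference was 1.22 for Ded1 (percentile 93), 1.44 for eIF4A (percentile 83.5) and 2.13 for eIF4B (percentile 99.1). The eIF4B value rested on library 09, with 110.6 RPM against 26.64 and 14.78 in the other 2, and was 0.86 without it. The eIF4A value at GE 16 min rested on library 45, with 88.75 RPM against 0 in the other libraries of that group. The CNS1 values rest on few reads.

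Per kb, Ded1 at 42C crosslinked most to HSP82, at a mean of 3220 RPM per kb, then HSP104 at 2950 and HSC82 at 2649, against 390.8 for HSC82, the highest mean of the 10 in controls. On eIF4B the same 3 had the highest means at 42C, with 2411, 2280 and 1353 RPM per kb, where HSC82 led in controls with 697.5. On eIF4A the means were 902.5, 699.9 and 621.4 at 42C, and HSC82 led with 252.9 in controls. The ranges of HSP82 and HSP104 at 42C overlapped on all 3 proteins, and those of HSP104 and HSC82 on Ded1 and eIF4A. In controls HSC82 overlapped the next gene on Ded1 (SBA1) and eIF4A (HCH1) but not on eIF4B. The 10 mRNAs held 6.23 to 6.89% of mRNA reads on Ded1 at 42C and 0.302 to 0.477% in controls, 5.72 to 7.49% and 0.43 to 0.526% on eIF4B, and 3.19 to 5.48% and 0.228 to 0.46% on eIF4A. The ratio of HSP82 to HSC82 reads, 1.23 to 1.24 on Ded1 and 1.53 to 2.26 on eIF4B at 42C, was 0.3 to 0.359 and 0.279 to 0.427 in controls. In controls both lay above the 0.19 to 0.212 of the wild-type mRNAs, and at 42C the Ded1 ratio lay within the 1.2 to 1.54 of the mRNAs. At GE 16 min it was 0.437 to 0.607 on Ded1, 0.586 to 1.17 on eIF4B and 0.588 to 1.98 on eIF4A, against 1.34 to 1.37 for the mRNAs, so all Ded1 and eIF4B libraries lay below the mRNAs and those of eIF4A lay on both sides. Reads that fitted both genes were placed at random, which draws each ratio toward 1. The share of such reads may differ between CRAC and RNA-seq and was not measured, so the ratios of the 2 assays are not strictly comparable.

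In glucose withdrawal the binding of most of these mRNAs did not follow a single course. At 16 min only HSP104 was called on eIF4B and only HSP104 and HSP82 on Ded1, all higher, against 0.792% of mRNAs called higher for eIF4B and 0.431% for Ded1. None was called on eIF4A by edgeR (2 at an unadjusted p below 0.05, and 1 or 2 by DESeq2 with either scaling), where 0.144% of mRNAs were called in either direction.

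HSP104 on eIF4B had 97.34 to 210.4 RPM in controls, 129.7 and 69.59 at GE 30 s, and 1014, 1319 and 1311 at GE 16 min. It was thus within or below the controls at 30 s and well above them at 16 min (log2 2.89, SE 0.51, adjusted p = 6.41e-05). The eIF4B libraries of the 2 times lay in different ranges of library numbers (72 and 73 at 30 s, and 09, 22 and 27 at 16 min). Whether these ranges were batches is not stated, and time cannot be told apart from any such difference. On Ded1 HSP104 had 156.4 to 166.8 RPM in controls, 90.04 and 195.1 at GE 30 s and 553.8, 278 and 1315 at GE 16 min (log2 2.15, SE 0.40, adjusted p = 0.00357, and 1.37 without library 67). On eIF4A the 4 values at GE 16 min were 78.64, 193.2, 483 and 537.3, all above the controls (log2 3.29, adjusted p = 0.0897, and called when scaled to mRNA reads at 3.75).

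HSP82 on Ded1 had 239.8 to 312.5 RPM in controls, 264.9 and 134.5 at GE 30 s and 546.7, 379.7 and 1316 at GE 16 min (log2 1.37, SE 0.37, adjusted p = 0.036). Library 67 was the highest by far. The call was lost without library 67 (0.68, adjusted p = 0.183) or any control (57, 1.44, adjusted p = 0.0711; 61, 1.43, adjusted p = 0.0877; 65, 1.26, adjusted p = 0.201), with the library set as a term (1.32, adjusted p = 0.0559) and for the pair summed (0.84, adjusted p = 0.105). On eIF4B HSP82 had 680.7, 785 and 878.8 RPM at GE 16 min, above every control (log2 0.60, adjusted p = 0.196), where the median of all mRNAs fell by 1.75 on the log2 scale. Relative to that median it passed, at 2.25 scaled to mRNA reads and 1.96 with TMM, and against mock-shifted cells at 1.44 (adjusted p = 0.00534).

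At GE 30 s, 3 of the 10 had less eIF4B binding in RPM, where 10.7% of all mRNAs had less. STI1 had 18.29 and 28.47 RPM, against 218.5 to 292.1 in controls (log2 -3.43, adjusted p = 0.000148), HSC82 328.3 and 561 (log2 -1.85, adjusted p = 0.00505) and HSP82 187.8 and 138.1 (log2 -1.66, adjusted p = 0.00887). All were below every control, but the median of all mRNAs had moved by -2.24 and the share of reads on mRNA was 15.3 to 16.9%. Relative to the other mRNAs none of the 3 was called: with TMM scaling STI1 stood at -1.55, HSC82 at 0.03 and HSP82 at 0.25. All 3 calls were lost without library 72 (STI1 -3.14, adjusted p = 0.0545; HSC82 -1.51, adjusted p = 0.191; HSP82 -1.90, adjusted p = 0.115). Without library 73 the calls of HSC82 (-2.28, adjusted p = 0.0695) and HSP82 (-1.46, adjusted p = 0.19) were lost, and HSP82 was not called against mock-shifted cells (-0.82, adjusted p = 0.152).

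For Ded1 and eIF4A no member was called at GE 30 s by edgeR, where 8.16% and 0% of mRNAs were called in either direction. At an unadjusted p below 0.05 there were 0 members for Ded1 and 2 for eIF4A, HSP82 at -2.55 and AHA1 at -4.77 (adjusted p = 0.297 each). DESeq2 called those 2 with all counted reads as size factors and none with its own, and called 2 members on Ded1 with its own size factors. Leaving out library 69 made CDC37 on Ded1 a call (-3.84, adjusted p = 0.0428).

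Heat shock also gave more binding in RPM than GE at 16 min. On Ded1, 7 of the 10 were higher and CNS1 was lower (5.05% and 12.4% of all mRNAs), and on eIF4B the same counts held (4.34% and 6.25%). The log2 differences on Ded1 were 3.65 for HSP104, 3.33 for HSP82, 3.12 for CPR6, 3.02 for STI1, 2.81 for AHA1, 2.21 for HCH1 and 2.14 for HSC82, and on eIF4B 2.51, 2.84, 2.80, 2.93, 2.86, 2.68 and 1.73. Library 67 lowered these on Ded1, and without it they were 4.43 for HSP104, 4.02 for HSP82, 3.83 for CPR6, 3.72 for STI1 and 3.58 for AHA1. The CNS1 differences, -3.41 on Ded1 (adjusted p = 0.0154) and -4.77 on eIF4B (adjusted p = 0.00984), were lost without Ded1 library 62 (-2.83, adjusted p = 0.0835) or 68 (-2.94, adjusted p = 0.055) and without eIF4B library 09 (-3.5, adjusted p = 0.098), and without library 98 the eIF4B value was -6.52. On eIF4A no member was called by edgeR, 3 had an unadjusted p below 0.05 (HSP104 at 2.72, adjusted p = 0.0859), DESeq2 called 4 with its own size factors and 0 with all counted reads, and 4.12% of mRNAs were called in either direction.

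Cycloheximide present during heat shock changed few of these levels on the spike-in scale, while most other mRNAs were higher. Relative to 42C alone, 78.9% of mRNAs were higher with CHX and the median log2 difference was 1.02, but of the 10 only CNS1 was called, 2.44-fold higher (log2 1.29, SE 0.18, adjusted p = 8.49e-12). HSP104 had 1202 and 1148 reads per 1000 S. pombe reads with CHX, within the 914.2 to 1306 seen at 42C alone (log2 0.12), and HSP82 had 835.6 and 772.2 with CHX, within 614 to 929.7 (log2 0.08). The upper ends, 1306 and 929.7, were library I, the only wild-type 42C library of the same set as the CHX libraries. HSC82 at -0.12, STI1 at 0.28, AHA1 at 0.35, CPR6 at -0.16, CDC37 at -0.03, HCH1 at 0.28 and SBA1 at -0.40 (adjusted p = 0.0636) did not pass either. CNS1 had 1.204 and 1.714 with CHX, above the 0.4419 to 0.6887 at 42C alone and below the 3.186 to 3.55 of controls.

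These calls depended on the scale. Against the median of all mRNAs, the other 9 members were 0.67 to 1.41 lower with CHX than at 42C alone on the log2 scale, and TMM scaling called all 10, HSP82 at -0.85 and HSP104 at -0.81. The members' share of mRNA reads was 5.85 to 6.47% with CHX and 7.5 to 8.79% without it. Relative to unstressed controls, CHX at 42C gave 7 of 10 higher and CNS1 lower (39.4% and 32.2% of all mRNAs), with HSP104 40.3-fold and HSP82 26.3-fold higher and CNS1 at -1.20 on the log2 scale (adjusted p = 7.24e-10).

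On eIF4B, no member was called with CHX relative to 42C alone by edgeR or DESeq2, with CNS1 (log2 3.12, adjusted p = 0.158) the only member at an unadjusted p below 0.05, while 7.4% of all mRNAs were called in either direction and the median rose by 1.24. HSP82 had 3908 and 4966 RPM with CHX, against 4867 to 6179 at 42C alone, and HSP104 had 4089 and 6545, against 6383 to 7494. Relative to control, 5 were higher with CHX (1.75% of all mRNAs): HSP104 at 5.02, CPR6 at 3.60, STI1 at 3.32, HSP82 at 3.11 and AHA1 at 2.77 on the log2 scale. HSC82 (0.95, adjusted p = 0.221) and HCH1 (1.85, adjusted p = 0.113) were not called, though the Hsp90 pair summed was (1.83, adjusted p = 8.12e-05). The AHA1 call was lost without library 97 (adjusted p = 0.0879) or 99 (adjusted p = 0.0844). Both CHX libraries were among the 3 counted on the later annotation, in which counted reads exceeded mapped reads by 18.7 to 30.4%.

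In both deletion strains HSP104 and HSP82 were again the mRNAs of the set that rose most at 42C. In deltaXrn1, HSP104 rose by 4.91 on the log2 scale over its own control, HSP82 by 4.10, CPR6 by 3.20, STI1 by 3.10, HSC82 by 1.66 and AHA1 by 1.58, and CNS1 fell by 1.98. That is 7 of 10 higher and 2 lower (13% and 67.5% of all mRNAs). In deltaSki2 the changes were 4.76 for HSP104, 4.13 for HSP82, 3.23 for CPR6, 3.14 for STI1, 2.12 for AHA1, 1.83 for HCH1, 1.51 for HSC82 and -2.80 for CNS1, with 7 higher and 1 lower (15.1% and 65.2% of all mRNAs). The calls of HCH1 (0.48, adjusted p = 0.0404) and CDC37 (-0.62, adjusted p = 0.00408) in deltaXrn1 were not stable. That of HCH1 was lost without M (0.51, adjusted p = 0.0788), R (0.44, adjusted p = 0.141) or S (0.36, adjusted p = 0.185), and that of CDC37 without N (-0.51, adjusted p = 0.0576) and in the opposite direction with TMM scaling (0.25).

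**Figure D5:**
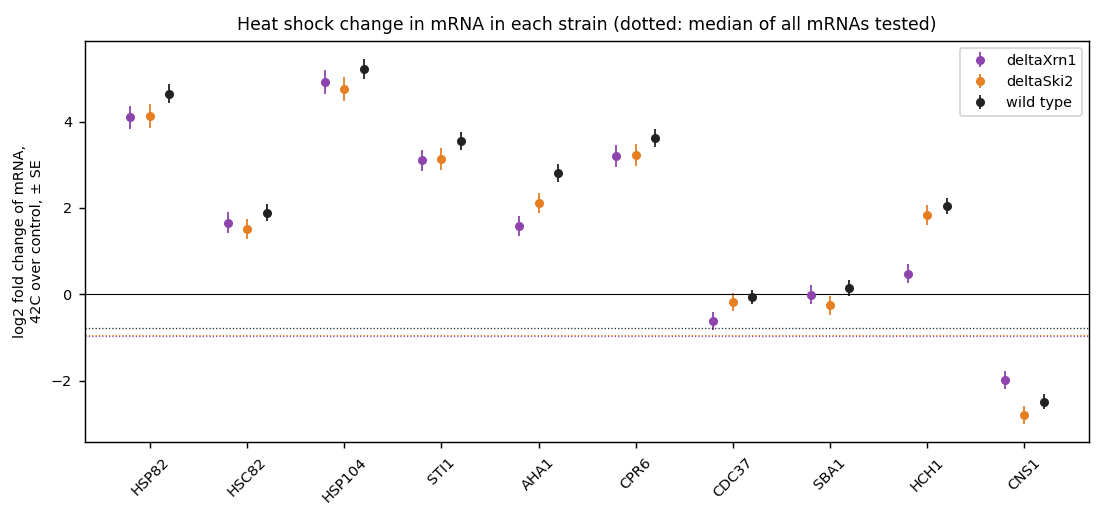
Log2 change of each of the 10 mRNAs at 42C over the control of the same strain, for deltaXrn1, deltaSki2 and wild type (points are fitted changes on the spike-in scale, bars are their SE). The 3 strains lay close together for HSP82, HSP104, STI1 and CPR6, and deltaXrn1 lay below the other 2 for AHA1 and HCH1.

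The heat shock change itself was compared between strains with an interaction term. It was smaller in deltaXrn1 than in wild type for HCH1 (log2 -1.57, SE 0.29, adjusted p = 1.82e-06) and AHA1 (-1.23, SE 0.29, adjusted p = 0.000331), 2 of 10, where 12.7% of all mRNAs had a lower change, and no other member was called (HSP82 -0.55, adjusted p = 0.187; CNS1 0.51, adjusted p = 0.138). HCH1 had 25.22 and 29.53 reads per 1000 S. pombe reads at 42C and 20.2 and 19.16 in control in deltaXrn1, so its control level was above and its heat-shocked level below every wild-type library of the same condition. AHA1 had 37.25 and 49.34 at 42C and 12.17 and 16.74 in control in deltaXrn1. It followed the same pattern, above every wild-type control and below every wild-type library at 42C. The deltaSki2 controls of AHA1 (15.75 and 15.88) and HCH1 (14.05 and 13.72) were also above every wild-type control.

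Levels were also compared between strains. At 42C, 7 members were lower in deltaXrn1 than in wild type and 2 were higher, where 41.4% of all mRNAs were higher and 12.6% lower and the median was 0.29. CPR6 differed by -0.84 (adjusted p = 0.000295), HSC82 by -0.81 (adjusted p = 0.000652), AHA1 by -0.76 (adjusted p = 0.000888), STI1 by -0.73 (adjusted p = 0.0021), HCH1 by -0.62 (adjusted p = 0.00667), HSP82 by -0.61 (adjusted p = 0.0126) and HSP104 by -0.57 (adjusted p = 0.0206), and SBA1 by 0.64 (adjusted p = 0.00378). HSP104 had 668 and 795.8 reads per 1000 S. pombe reads in deltaXrn1 at 42C and HSP82 457.4 and 545.6, each below all 3 wild-type libraries. Only CPR6, HSC82 and SBA1 held without any single library. Without wild-type library I the calls of HSP82 (-0.44, adjusted p = 0.0958), HSP104 (-0.41, adjusted p = 0.125) and CNS1 (0.25, adjusted p = 0.276, called at 0.43 with all) were lost. Without N those of HSP82 (-0.48, adjusted p = 0.124), HSP104 (-0.45, adjusted p = 0.157), STI1 (-0.57, adjusted p = 0.0712), AHA1 (-0.57, adjusted p = 0.0548) and HCH1 (-0.51, adjusted p = 0.0818) were lost, and without S that of CNS1 (0.26, adjusted p = 0.356). The members held 4.93 to 5.03% of mRNA reads in deltaXrn1 at 42C, against 7.5 to 8.79% in wild type.

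In unstressed cells HCH1 was 1.94-fold higher in deltaXrn1 than in wild type (log2 0.95, SE 0.20, adjusted p = 9.33e-06) and SBA1 was higher by 0.80 (adjusted p = 0.000212), with 38.74 and 40.33 reads per 1000 S. pombe reads in deltaXrn1 and 19.75 to 26.71 in wild type. AHA1 was called higher (0.46, adjusted p = 0.0426) and HSC82 lower (-0.59, adjusted p = 0.0144), so that 3 members were higher and 1 lower, against 42.8% and 11.8% of all mRNAs. The call of AHA1 was lost without A, B, H or R (0.22, adjusted p = 0.508 without R), and that of HSC82 without B (-0.56, adjusted p = 0.0534) or M (-0.49, adjusted p = 0.139). The Hsp90 pair summed differed by -0.49 (adjusted p = 0.0488).

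Between deltaSki2 and wild type none of the 10 was called by edgeR, at 42C (0 at an unadjusted p below 0.05, 0 by DESeq2), in control (4 at an unadjusted p below 0.05, AHA1 the largest at 0.59, adjusted p = 0.298, and 1 or 0 by DESeq2 with its own or S. pombe size factors) or in the heat shock change (1 and 0). Of all mRNAs, 2.19%, 0.254% and 0.0318% were called in either direction. The differences at 42C lay between -0.29 for CNS1 and 0.24 for HCH1 with SEs of 0.19 to 0.22. Differences well above the SE could also go uncalled, as that of AHA1 in control did at 0.59.

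Other genes of the same machinery were read from lists chosen with earlier results known. Of 5 further Hsp90 cochaperones (CPR7, PPT1, SGT1, TAH1 and PIH1), all 5 fell in wild-type cells at 42C, with a median log2 change of -1.53 over the list and -0.77 over all mRNAs, of which 63.4% fell. PPT1, a phosphatase that acts on Hsp90, changed by -3.94 and TAH1, which with Pih1 links Hsp90 to the assembly of large RNA-protein complexes, by -2.35. In GE 0 rose and 4 of the 5 fell (median -1.13, against 40.6% lower and a median of -0.26 over all mRNAs). On eIF4B and Ded1 at 42C 3 of 5 had less binding and none more (medians -3.06 and -2.24, against 23.5% and 23% lower and medians of -1.45 and -0.82). With CHX all 5 were higher than at 42C alone (median 1.24), as were 78.9% of all mRNAs (median 1.02).

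Of 12 genes of the Hsp70 system and small heat shock proteins that work with Hsp104 (SSA1, SSA2, SSA3, SSA4, YDJ1, SIS1, FES1, SSE1, SSE2, SNL1, HSP26 and HSP42), 11 rose at 42C (median 3.80), where 17.4% of all mRNAs rose. HSP26, a small heat shock protein, changed by 8.32 and SSA4, a heat-inducible Hsp70, by 8.24, while SNL1, an Hsp70 exchange factor in the endoplasmic reticulum membrane, changed by -1.80. In GE 7 of 12 rose and 1 fell (median 1.48), where 18.5% of all mRNAs rose and 40.6% fell. Binding at 42C was called higher for 10 of 12 on eIF4B (median 3.33, with 2.39% of all mRNAs higher), with none lower, for 11 on Ded1, with 1 lower (median 4.25, with 3.76% higher), and for 4 on eIF4A (median 3.27, with 0.659% higher), with none lower. Of the 3 regulators, HSF1 mRNA rose by 0.67 at 42C and MSN4 and MSN2 changed by -1.32 and -0.33 (17.4% of all mRNAs higher and 63.4% lower). In GE only MSN4 was called, at 0.93 (18.5% higher).

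The mRNAs whose level followed the chaperones most closely over all 18 RNA-seq libraries were found by Pearson's r of log2(reads per 1000 S. pombe reads + 1), given as a description with no test, since the libraries share strains, library sets and the division into heat-shocked and other libraries. Nearest to HSP104 were HSP78 (0.999), its mitochondrial relative, SSE2 (0.995), an Hsp110 exchange factor, and PNC1 (0.995), a nicotinamidase. Nearest to HSP82 were HSP78 (0.996), PNC1 (0.996) and TPS1 (0.995), the trehalose phosphate synthase. HSC82 had a different set, APA1 (0.982), YGP1 (0.978) and GRE2 (0.978).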

How the data were processed

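The authors deposited, for each library, whole-number counts of reads per annotated feature, made with Novoalign and pyReadCounters on intronless genomes, with PCR duplicates collapsed in CRAC and multi-mapping reads placed at random. SAMtools and bedtools also stand in the submitters' notes. RPKM values that the authors deposited beside the RNA-seq counts served only to recover gene lengths. CRAC counts were of the sense strand, RNA-seq counts of the strand opposite the read. Before the gel, samples of the same protein were pooled across replicates or treatments. Groups came from the labels. Library sets were inferred from the library numbers in CRAC (up to 63 and from 65) and the letters in RNA-seq, with no batch stated. Library 51, an eIF4A library whose labels name both 30 s and 16 min, was placed at 30 s. The bare-number feature without a gene name, at most 0.0181% of CRAC and 0.009% of RNA-seq reads, was left out. There were 0 other columns of per-sample values.

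CRAC levels are reads per 1000000 counted reads, RNA-seq levels reads per 1000 S. pombe reads. Changes were fitted over all mRNAs with edgeR 4.0.16 (R 4.3.3) by the quasi-likelihood test, one fit for the 18 RNA-seq libraries with S. pombe reads as library size and one for each CRAC protein with all counted reads, after filterByExpr (minimum count 10, minimum total 15). Calls have a Benjamini-Hochberg adjusted p below 0.05. Alternatives were DESeq2 1.42.0, TMM and other scalings, no filter, the library set as a term, distinct cDNAs, mock-shifted reference, only the groups compared and leaving out each library. Those using distinct cDNAs and leaving out libraries 97, 98 and 99 together were added after seeing the data. Scripts used Python 3.11.15, numpy 2.4.6 and pandas 2.3.3 and were tested on simulated data. RNA-seq replicates were biological, whereas for CRAC separate cultures were not stated, so p-values measure the spread between libraries, which may be technical. The members, the other lists and the rule for named genes (all members, list genes at either end of the change at 42C, and the 3 nearest patterns to HSP82, HSC82 and HSP104) were chosen with earlier results of these data known.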

Additional observations from a re-analysis of the deposited data

Results flagged for a closer look

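Dixon's test at the 95% level was applied to the 60 pairs of a gene and a group of 4 to 6 libraries, and 10 pairs passed it. Chance flags about 1 in 20 for normally spread values only. A group at 0 in all libraries but 1 passes whatever that value is, so the number passing cannot be set against chance. In eIF4A libraries at 42C, AHA1 had 0 RPM in library 16 and 493.9 to 580.9 in the other 3, HSP104 had 3749 RPM in library 15 and 1431 to 1797 in the others, CDC37 had 33.3 RPM in library 15 and 0 in the others, and CNS1 had 6.228 RPM in library 54 and 0 in the others. CDC37 had 86.37 RPM in eIF4A control library 18 and 0 to 15.6 in the other controls, and 47.3 RPM in eIF4A mock library 77 and 1.886 to 3.835 in the other mock libraries. HSC82 had 487.1 RPM in eIF4A mock library 53 and 235.8 to 262 in the others. CNS1 had 88.75 RPM in eIF4A library 45 at GE 16 min and 0 in the other 3. In eIF4B libraries, CNS1 had 3.967 RPM in library 98 at 42C and 0 to 0.6182 in the others, and HSP82 had 378.3 RPM in control library 08 and 555.5 to 567.8 in the others. Of the 10, 8 were in eIF4A libraries, which gave 40 of the 60 pairs tested, and none of the pairs was from Ded1 or RNA-seq. The 6.228 RPM of CNS1 lay under the 15.2 RPM that the 0 of library 16 allows. Its 3.967 RPM lay under the 12.9 and 16.3 RPM that the zeros of libraries 23 and 56 allow.

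The heat shock change differed between deltaXrn1 and wild type for AHA1 (log2 difference -1.23, adjusted p = 0.000331) and HCH1 (log2 difference -1.57, adjusted p = 1.82e-06) by the interaction term of the edgeR fit over all mRNAs.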

How the results depend on the processing

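Of 4455 pairs of a member's change and an alternative, 4227 stayed on the same side of the threshold, 81 lost a call, 114 gained one and 33 turned round in a called value. In all 297 values changed sign, these 33 among them. No paired analysis was possible because library numbers are unique to each library. Scalings within S. cerevisiae moved the median of all mRNAs at 42C over control in wild type to 0.10 (TMM), 0.05 (DESeq2 with its own size factors) and -0.38 (S. cerevisiae reads), and for eIF4B binding to -0.35 (TMM).

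With TMM, DESeq2's own factors and S. cerevisiae reads, in that order, CDC37 at 42C in wild type became 0.82, 0.77 and 0.34. CNS1 at 42C over GE became 0.14 and 0.15 with TMM and DESeq2's own factors. For CHX at 42C over 42C alone, these gave HSP82 -0.85 and -0.85, HSP104 -0.81 and -0.81, STI1 -0.65 and -0.65, AHA1 -0.57 and -0.58, and HCH1 -0.64 and -0.65, and S. cerevisiae reads gave HSP82 -0.40 and HSP104 -0.36. At 42C they gave CDC37 0.84 and 0.81 and SBA1 0.75 and 0.72 in deltaSki2, and CDC37 0.25 and 0.28 and SBA1 0.87 and 0.89 in deltaXrn1, where S. cerevisiae reads gave SBA1 0.36. For eIF4B at GE 30 s, TMM, DESeq2's own factors and mRNA reads gave HSP82 0.25, 0.28 and 0.40 and HSC82 0.03, 0.08 and 0.20. The summed pair in GE RNA-seq stood at 0.74, where HSC82 alone was at -0.23.

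Counts of members called moved as follows. For CHX over 42C in RNA-seq, 1 became 10 with TMM, 10 with DESeq2's own factors, 7 with S. cerevisiae reads, 2 with DESeq2 and S. pombe factors and 2 with only the groups compared. For deltaXrn1 over wild-type controls, 4 became 8, 8 and 7 with the first 3 of these, and for the deltaXrn1 interaction 2 became 5, 5 and 4. For deltaSki2 over wild-type controls, 0 became 1 with DESeq2's own factors and 1 with only the groups compared. For eIF4A at 42C, 3 became 5 with DESeq2's own factors and 5 with mRNA reads. For eIF4A at GE 16 min, 0 became 1 without a filter, with DESeq2's own factors, with mRNA reads and with distinct cDNAs, and 2 with DESeq2 and all counted reads. For eIF4A at GE 30 s, 0 became 2 with DESeq2 and all counted reads. For eIF4A at 42C over GE, 0 became 4 with DESeq2's own factors and 1 with TMM, mRNA reads, library 51 at 16 min or only the groups compared. For eIF4B at GE 16 min, 1 became 2 with TMM, the mock reference or only the groups compared, 3 with DESeq2's own factors and 4 with mRNA reads. For eIF4B at GE 30 s, 3 became 0 with TMM, DESeq2's own factors or mRNA reads, 7 with DESeq2 and all counted reads and 6 with only the groups compared. For Ded1, 2 at GE 16 min became 4 with TMM or DESeq2's own factors and 1 with the library set as a term, and 0 at GE 30 s became 2 with DESeq2's own factors. With the library set as a term, RNA-seq lost the calls of CDC37 (0.38) and CNS1 (-0.35) at 42C over GE and of AHA1 (0.36) between deltaXrn1 and wild-type controls, and eIF4B that of HCH1 at 42C (1.36). The causes were not tested.

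Leaving out each library in turn gave 8 to 8 calls at 42C in wild type, 1 to 3 for CHX over 42C, 4 to 9 for deltaXrn1 over wild type at 42C and 2 to 3 in control, 0 to 3 for eIF4B at GE 30 s, 0 to 1 for eIF4B mock, 1 to 2 for Ded1 at GE 16 min and 0 to 1 at GE 30 s. Of the 36 CRAC values at 0 reads, 33 were in eIF4A libraries.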
